A study of Mus musculus with 11 samples.

Results

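The genes described here mark the passage from neural progenitor to neuron. They are 39 of the 53453 gene rows of the expression table and were taken by name: 9 proneural genes that act in progenitors or newborn neurons, 19 pan-neuronal genes that most neurons share, and 11 subtype genes that mark glutamatergic projection neurons or GABAergic interneurons. RNA was sequenced from primary neurospheres, suspension cultures enriched in neural stem cells and their progenitor offspring, grown from embryonic mouse brain at E15.5. The control group held 6 libraries and the Klf5 overexpression group 5, each from a separate embryo according to the protocol in the labels. The labels give no treatment beyond this, and the strain and the means by which Klf5, a Kruppel-like zinc finger transcription factor, was overexpressed are not given here.

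Proneural factors of the basic helix-loop-helix family, such as Neurog2, drive progenitors out of the cell cycle and switch on later factors, among them Neurod1 and Eomes. Young neurons then make tubulins and microtubule-binding proteins for neurite growth, followed by synaptic vesicle proteins. In the forebrain, glutamatergic projection neurons arise dorsally and GABAergic interneurons ventrally, and each carries its own transcription factors, transporters and peptides. Neurospheres kept in growth factors consist mainly of dividing progenitors with few neurons.

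Expression was deposited as TPM, a transcript abundance that corrects for transcript length and for the library total. The depth of the libraries is unknown, so precision rests on the spread between libraries. Klf5 itself was 0.849 ± 0.297 TPM (SD, n = 6) in controls and 75.8 ± 18.5 TPM (SD, n = 5) with overexpression, so every library matched its label. Rows that resemble ribosomal RNA held 17.7% to 29.7% of the summed TPM in controls and 11.1% to 28.3% with overexpression. Markers of microglia and of red blood cells were near 0. The microglial list summed to 0.528 to 3.14 TPM in controls and 0.809 to 3.04 TPM with overexpression. Its genes Cx3cr1, Aif1, C1qa, C1qb, C1qc and Tyrobp were 0 in all libraries. The erythroid list stayed below 1 TPM. Vessel markers were low: the endothelial list summed to 0.921 to 2.92 TPM in controls and 1.08 to 2.49 TPM with overexpression, and the mural and mesenchymal list to 2.68 to 14.3 TPM and 3.12 to 7.02 TPM, with 1 of its 3 tested genes, Myl9, lower (adjusted p = 0.0454, limma). All 7 defining neuron markers (Tubb3, Dcx, Rbfox3, Map2, Stmn2, Snap25 and Syt1) were detected, summing to 225 to 341 TPM in controls and 198 to 315 TPM with overexpression. Map2 alone was 206 to 283 TPM in controls and 175 to 234 TPM with overexpression. These sums therefore mostly reflect Map2 and hide the spread of the other markers. Glial lists changed too: 2 of 13 tested radial glia genes were higher and 5 lower (sums of 5022 to 8138 TPM in controls and 3842 to 5814 TPM with overexpression), and 3 of 10 astrocyte genes were higher and 2 lower (487 to 618 TPM and 436 to 633 TPM). Their part in the results below was not tested.

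A gene was tested where it reached 1 TPM in at least 5 libraries. Of the 39 genes, 24 did: 4 of 9 proneural, 17 of 19 pan-neuronal and 3 of 11 subtype genes. With limma and Benjamini-Hochberg adjustment over all 13549 tested genes at 0.05, 2 of the 24 were higher with Klf5 overexpression, Sstr2 and Mapt, and 0 were lower. Over all tested genes 504, or 3.72%, passed, of which 2.29% of those tested were higher and 1.43% lower. At an unadjusted p under 0.05 there were 9 of the 24, Sstr2 among them, against 12.6% of all tested genes. Log2 fold changes are of log2(TPM + 1), overexpression minus control, and their median was 0.32 over the 4 proneural genes, -0.36 over the 17 pan-neuronal genes and -0.19 over the 3 subtype genes, against -0.04 over all tested genes. A value below 0 was found for 14 of the 17 pan-neuronal genes and all 3 subtype genes, against 57.6% of all tested genes. Many of these genes moved together across libraries, as described below, so their signs are not separate observations. These counts and medians describe genes that passed the filter on low values, not all 39. Sstr2 passed it only through the overexpression group, where it is high. Without Sstr2, 1 of 23 genes was higher, and the median of the other 3 proneural genes was 0.16.

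**Figure D1:**
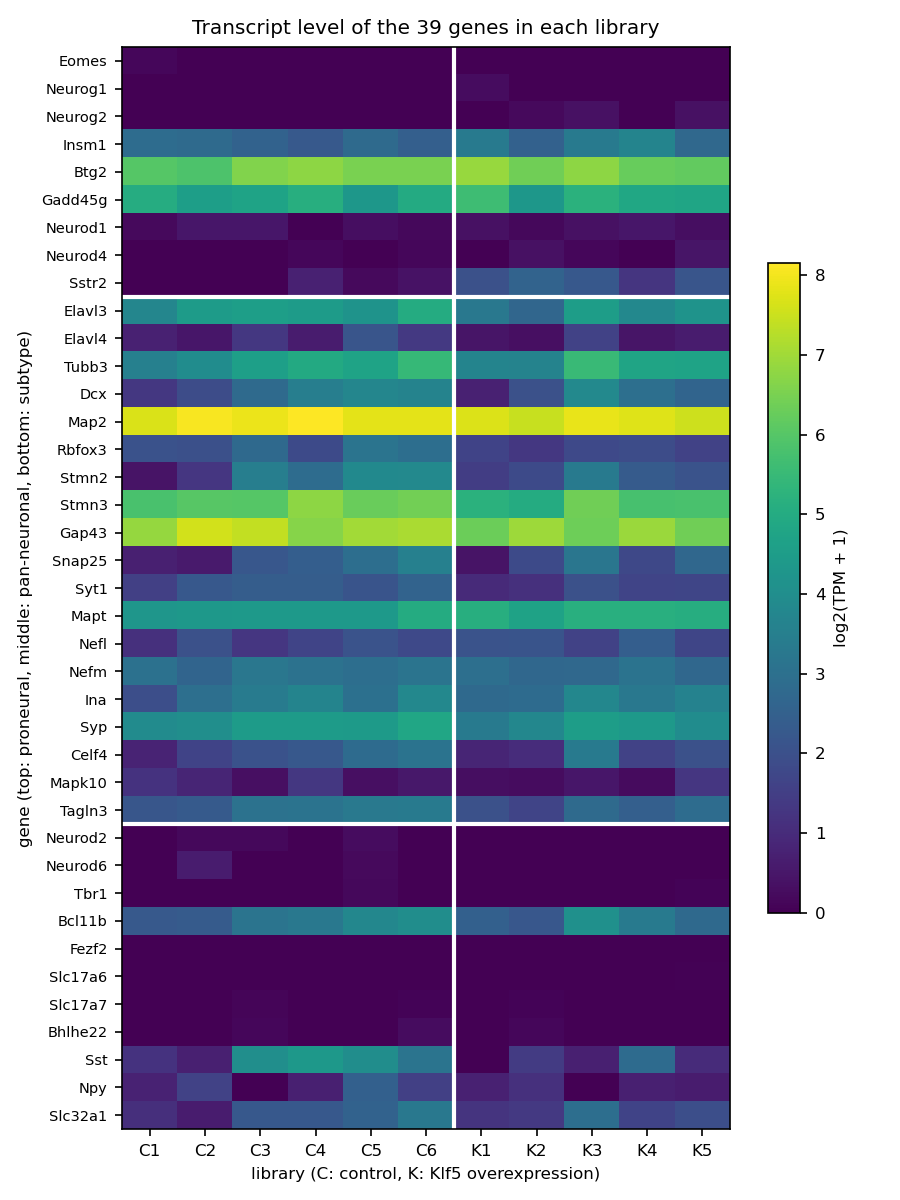
Each row is a gene of the proneural, pan-neuronal or subtype class and each column a library (6 control, 5 Klf5 overexpression), coloured by log2(TPM + 1). The proneural bHLH factors and most projection neuron genes are near 0 throughout, Map2 and Gap43 are high throughout, and control library 1 and overexpression libraries 1 and 2 are dark (low) in many pan-neuronal rows.

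Most proneural bHLH genes were barely detected in either group. Neurog1, Neurog2, Neurod1, Neurod4 and Eomes, the last a T-box factor of intermediate progenitors, stayed below 1 TPM in every library. Neurog2 was 0 in all 6 controls and 0, 0.151, 0.289, 0 and 0.276 TPM in overexpression libraries 1 to 5. Neurod1 ranged from 0 to 0.416 TPM in controls and from 0.123 to 0.406 TPM with overexpression. Eomes was above 0 only in control library 1, at 0.0969 TPM. When the filter was dropped, 14 of the 15 untested genes of all classes entered the test and 0 passed, and the smallest adjusted p (limma) was 0.382, for Neurog2.

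The other proneural genes were present at moderate levels. Insm1, a zinc finger factor that promotes the formation of basal progenitors, was 3.85 to 6.37 TPM in controls with a median of 5.43, and 9.34, 4.74, 9.00, 11.7 and 5.73 TPM in overexpression libraries 1 to 5. Overexpression libraries 1, 3 and 4 lay above every control, while libraries 2 and 5 lay within the control range. The log2 fold change was 0.49 ± 0.22 (SE; adjusted p = 0.353, limma; exact two-sided permutation p = 0.0693). Btg2, an antiproliferative gene switched on in progenitors that will make neurons, was 84.4 ± 19.5 TPM (SD, n = 6) in controls and 91.5 ± 20.8 TPM (SD, n = 5) with overexpression. Gadd45g, a growth arrest gene of the same kind of cell, was 27.3 ± 5.74 TPM (SD, n = 6) and 31.4 ± 11.0 TPM (SD, n = 5). For both genes the difference was smaller than the spread within either group, with a 95% confidence interval of -0.26 to 0.50 for Btg2 and -0.28 to 0.60 for Gadd45g on the log2 scale.

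Sstr2, a receptor for the peptide somatostatin that is carried by intermediate progenitors and young neurons, separated the groups completely. In controls it was 0 to 0.677 TPM with a median of 0.0774, and it was 0 in control libraries 1, 2 and 3. In overexpression libraries 1 to 5 it was 3.09, 4.97, 3.78, 1.38 and 3.43 TPM. Every overexpression library was above every control, which held for 1.99% of all tested genes in this direction. No other tested gene of the 39 had groups that did not overlap, against 3.29% of all tested genes in either direction and 1.31% in the lower direction. It rose by 1.83 ± 0.27 (SE) on the log2 scale, with a 95% confidence interval of 1.26 to 2.40 (adjusted p = 0.000652, limma; exact permutation p = 0.00216, the smallest that 6 against 5 libraries can give). The ratio of mean TPM was 17.2, and 34.4 without control library 4, the highest control. It remained called when each of the 11 libraries was left out in turn. Without an overexpression library, the filter asked for 1 TPM in only as many libraries as the smaller group kept. Sstr2 entered these fits through the overexpression group too, so its calls there are no separate support. Sstr2 reached 1 TPM only in the overexpression group and so entered the test through that group. A gene that enters in this way has groups that do not overlap. The separation and the permutation p of 0.00216 followed from this entry and are no support for the rise. The limma p, the interval and the call depend on the same entry, so they are no independent support either.

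Sstr2 lies at chr11:113619342-113626028 (GRCm38, plus strand) and overlaps Slc39a11, a zinc transporter gene on the opposite strand. Whether the quantification used strand is not given, so reads of the pair may be mixed. Slc39a11 was 5.74 ± 2.03 TPM (SD, n = 6) in controls and 5.28 ± 1.90 TPM (SD, n = 5) with overexpression (log2 fold change -0.10, adjusted p = 0.953, limma). The promoter of Sstr2 is shown because this gene had the largest fold change among the 24 tested genes. It is the 250 bases before the RefSeq start site on GRCm38.p6, chr11:113619077-113619326, plus strand, read 5′ to 3′. Capitals mark CACCC, the core of sites bound by Kruppel-like factors, and GGGCGG, the GC box, each on either strand, so that GGGTG and CCGCCC are marked too. The last pair of matches overlaps.
Sstr2: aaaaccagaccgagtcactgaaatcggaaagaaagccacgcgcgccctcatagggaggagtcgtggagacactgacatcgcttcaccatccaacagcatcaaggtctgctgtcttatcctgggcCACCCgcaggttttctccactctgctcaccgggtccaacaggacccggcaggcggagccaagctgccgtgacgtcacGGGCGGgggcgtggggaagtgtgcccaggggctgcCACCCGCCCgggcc
The window held CACCC 2 times and GGGCGG 2 times. Both are common: CACCC was in 54.5% of the promoters of 27025 genes in the RefSeq table and in 24 of the 30 genes described here that have an entry (80%), and GGGCGG in 35.4% and in 18 of 30 (60%). A match in the letters is a description and not evidence of binding.

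**Figure D2:**
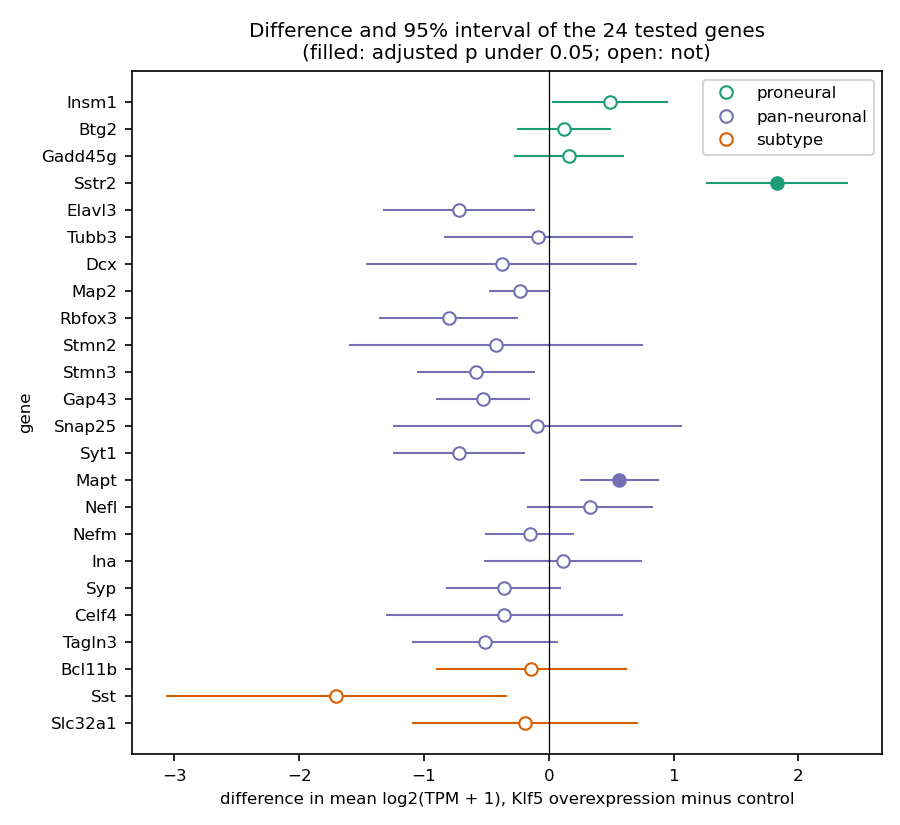
Points are log2 fold changes of log2(TPM + 1), Klf5 overexpression minus control, for the 24 tested genes by class, and bars are 95% confidence intervals, with filled points where the adjusted p was under 0.05. Sstr2 and Mapt, which passed the test, lie to the right of 0, while most pan-neuronal intervals are centred below 0 and many include it.

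Among pan-neuronal genes of the microtubule cytoskeleton and growing neurites, only Mapt passed the test. Mapt, which encodes the axonal microtubule-binding protein tau (chr11:104231390-104332090, plus strand), was 18.4, 19.2, 19.9, 20.1, 20.3 and 31.3 TPM in controls 1 to 6, and 33.2, 25.0, 34.7, 34.0 and 33.1 TPM in overexpression libraries 1 to 5. Control library 6 was above overexpression library 2, so the groups overlapped through these libraries alone. Mapt rose by 0.56 ± 0.15 (SE) on the log2 scale (95% confidence interval 0.25 to 0.88, adjusted p = 0.0474, limma; exact permutation p = 0.00649). The call was close to the threshold: with 1 library left out it held in 2 of 11 fits, those without control library 6 and without overexpression library 2, and the adjusted p ran from 0.00802 to 0.123.

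Map2, which encodes the dendritic counterpart of tau and had the highest level of the 39 genes, was 240 ± 29.4 TPM (SD, n = 6) in controls and 204 ± 23.9 TPM (SD, n = 5) with overexpression. Its log2 fold change of -0.23 ± 0.12 (SE) missed the threshold (adjusted p = 0.445, limma; exact permutation p = 0.0541). Gap43, a growth cone protein, was 101 to 194 TPM in controls with a median of 133, and 78.5, 124, 81.2, 120 and 82.7 TPM in overexpression libraries 1 to 5. Overexpression libraries 1, 3 and 5 lay below every control and libraries 2 and 4 within their range. The log2 fold change was -0.53 ± 0.18 (SE; adjusted p = 0.147, limma; exact permutation p = 0.039), and Gap43 was called lower when chromosomal sex was a covariate (adjusted p = 0.0334). The log2 fold change of the microtubule regulator Stmn3 was -0.58 ± 0.22 (SE; adjusted p = 0.231, limma).

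Tubb3, the neuronal beta-tubulin, and Dcx, the microtubule-binding protein of migrating neurons, varied more within the groups than between them. Tubb3 was 10.8 to 43.4 TPM in controls with a median of 24.6, and 11.7, 11.6, 44.9, 25.9 and 25.8 TPM in overexpression libraries 1 to 5. Dcx was 1.49 to 12.3 TPM in controls with a median of 8.09, and 0.685, 3.08, 13.2, 6.83 and 5.11 TPM in overexpression libraries 1 to 5. Stmn2, a microtubule regulator made in growing axons, was 0.360 to 13.5 TPM in controls with a median of 8.25, and 1.81, 2.54, 8.97, 4.02 and 3.27 TPM in overexpression libraries 1 to 5. In all 3 genes the lowest control was library 1, overexpression library 3 stood highest of its group, and the groups overlapped. The highest control value of Stmn2 was 37.4 times the lowest, and its spread within groups was greater than that of 99.3% of tested genes. Its log2 fold change was -0.42, with a 95% confidence interval of -1.60 to 0.75, an interval wide enough that neither a lower nor a higher level was detectable with these libraries.

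Genes of nuclear RNA handling and of the synapse gave 2 of the lower unadjusted values, neither of which passed. Rbfox3, the splicing factor known as the neuronal nuclear antigen NeuN, was 2.57 to 7.73 TPM in controls with a median of 4.50, and 2.13, 1.48, 2.51, 2.69 and 2.04 TPM in overexpression libraries 1 to 5. Only overexpression library 4 was above the lowest control. The log2 fold change was -0.80 ± 0.26 (SE; adjusted p = 0.128, limma; exact permutation p = 0.0195). Syt1, the calcium sensor of synaptic vesicle release, was 1.90 to 5.01 TPM in controls with a median of 3.99, and 0.942, 1.21, 3.05, 2.17 and 2.24 TPM in overexpression libraries 1 to 5. Control library 1 fell inside the overexpression range, and the other 5 controls were above every overexpression library. The log2 fold change was -0.72 ± 0.25 (SE; adjusted p = 0.17, limma; exact permutation p = 0.0195).

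The remaining pan-neuronal genes gave adjusted p values from 0.268 to 0.987 (limma). Elavl3, an RNA-binding protein of young neurons, had a log2 fold change of -0.72 ± 0.29 (SE), and it overlaps Gm49318 on the same strand, so their reads may be mixed. Snap25, which drives vesicle fusion, was 4.42 ± 3.87 TPM (SD, n = 6) in controls and 3.79 ± 3.07 TPM (SD, n = 5) with overexpression. The vesicle protein gene Syp had a log2 fold change of -0.36, the RNA-binding protein gene Celf4 -0.36, and the actin-associated gene Tagln3 -0.51. Among intermediate filament genes, the values were 0.33 for Nefl, -0.15 for Nefm and 0.11 for Ina. Nefl and Nefm overlap on opposite strands, Ina overlaps Nt5c2, and Tubb3 overlaps Gm20388, so reads of each pair may be mixed. Elavl4, a relative of Elavl3, was 0.422 to 3.45 TPM in controls and 0.265 to 2.08 TPM with overexpression, and Mapk10, a neuronal kinase, was 0.253 to 1.51 TPM and 0.186 to 1.43 TPM. Both were below the filter.

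**Figure D3:**
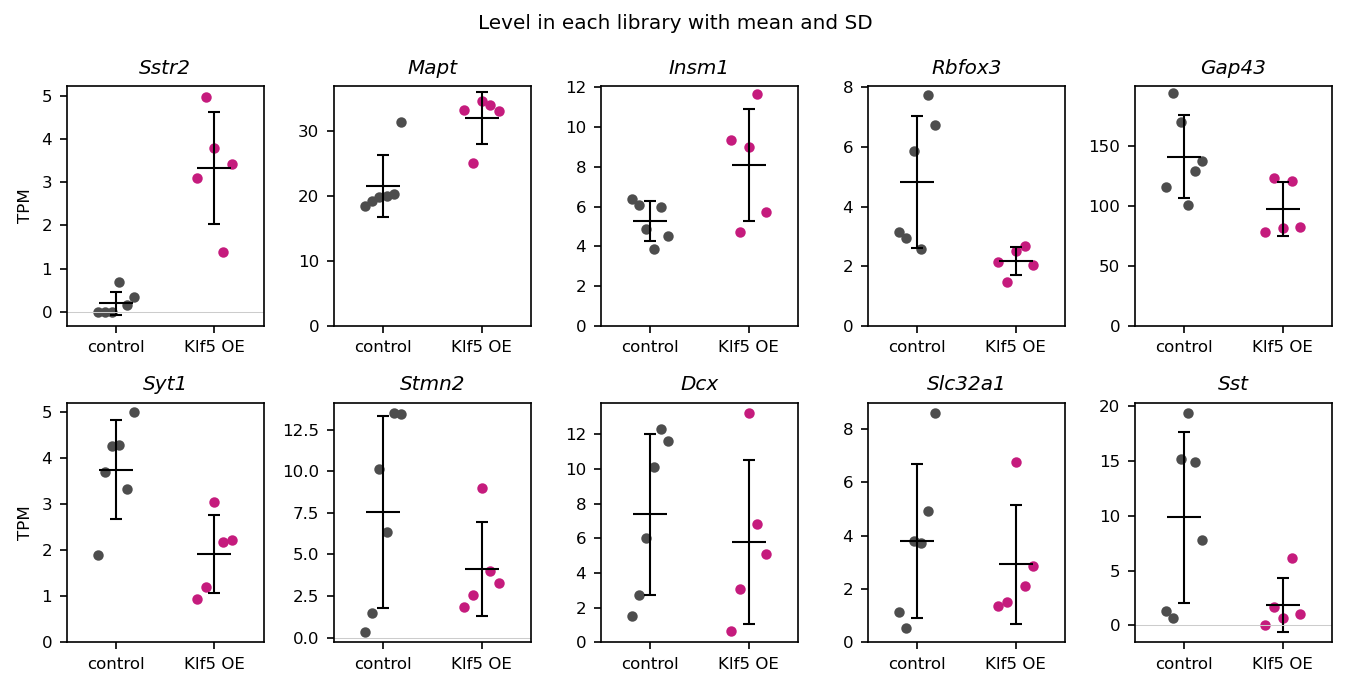
Points are TPM in each library for selected genes, by group (6 control, 5 Klf5 overexpression), with the mean and SD. Sstr2 is separated between groups, Mapt overlaps through 1 library of each group, and Stmn2 and Sst spread widely within the controls.

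Of the 8 subtype genes of glutamatergic and projection neurons, 7 stayed below 1 TPM in every library: the bHLH factors Neurod2, Neurod6 and Bhlhe22, the cortical factors Tbr1 and Fezf2, and the vesicular glutamate transporters Slc17a6 and Slc17a7. Fezf2 was 0 in all libraries. Neurod2 was above 0 in 3 controls, at 0.120 to 0.210 TPM, and Neurod6 in 2 controls, at 0.155 and 0.534 TPM, and both were 0 in all 5 overexpression libraries. At these levels no difference between the groups can be read. Bcl11b, a factor of both corticospinal and striatal neurons, was detected in all libraries, at 8.66 ± 4.46 TPM (SD, n = 6) in controls and 7.95 ± 5.10 TPM (SD, n = 5) with overexpression.

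Of the 3 GABAergic genes, Slc32a1 and Sst passed the filter. Slc32a1, which encodes the vesicular GABA transporter, was 0.550 to 8.58 TPM in controls with a median of 3.76, and 1.35, 1.53, 6.76, 2.11 and 2.85 TPM in overexpression libraries 1 to 5. The groups overlapped, and the log2 fold change was -0.19 with a 95% confidence interval of -1.10 to 0.72. Sst, the interneuron peptide somatostatin and a ligand of the receptor made by Sstr2, was 1.29, 0.643, 15.1, 19.3, 14.9 and 7.81 TPM in controls 1 to 6, and 0, 1.68, 0.643, 6.14 and 1.03 TPM in overexpression libraries 1 to 5. Controls 3 to 6 stood above every overexpression library, whereas controls 1 and 2 lay inside the overexpression range. The log2 fold change was -1.70 ± 0.64 (SE; 95% confidence interval -3.07 to -0.34; adjusted p = 0.224, limma; exact permutation p = 0.0714). The ratio of mean TPM was 0.193, and 0.0849 without overexpression library 4. Npy, another interneuron peptide, was 0 to 4.69 TPM in controls and 0 to 1.19 TPM with overexpression and was below the filter.

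In bulk RNA, fewer neurons and less of a transcript per neuron cannot be told apart. The libraries nevertheless had an order that many neuronal genes shared. Control library 1 was the lowest control in 13 of 17 tested pan-neuronal genes and control library 6 the highest in 9. With overexpression, libraries 1 and 2 were each the lowest in 8 of 17 and library 3 the highest in 12. As a set, the 4 tested proneural genes did not follow this order, and control library 4 was highest in 3 of them. Btg2 followed it in part among controls, being lowest in library 2 (57.8 TPM) and next in library 1 (63.1 TPM). With overexpression Btg2 was highest in library 1 (119 TPM). Ribosomal-RNA-like rows held 26.3% of the summed TPM in control library 1 and 11.1%, 28.3% and 20.4% in overexpression libraries 1, 2 and 3.

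Covariation was measured as the correlation of log2(TPM + 1) over the 11 libraries after subtracting each group's mean. Every gene of a library shares its preparation and its scaling, and the mean r over all pairs of the 13549 tested genes was 0.24. Mean r was 0.46 over the 136 pairs of pan-neuronal genes, 0.56 over the 51 pairs of a pan-neuronal and a subtype gene, 0.04 over the 6 pairs of proneural genes and 0.08 over the 68 pairs of a proneural and a pan-neuronal gene. A single pair, Insm1 with Sstr2 at -0.81, lowers the proneural mean, and the other 5 pairs had a mean r of 0.21. These values are a description.

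**Figure D4:**
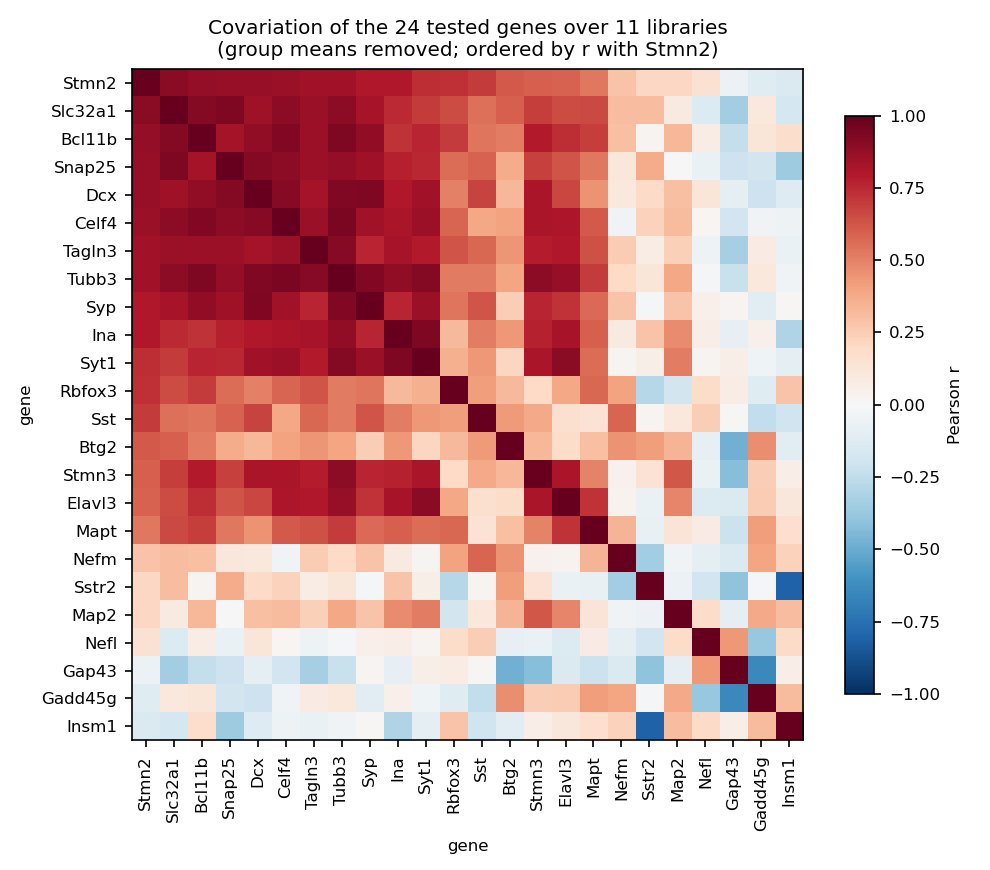
The colour of each cell is Pearson r of log2(TPM + 1) between a pair of tested genes over 11 libraries, with group means removed. A block of high r joins pan-neuronal genes such as Tubb3, Dcx, Stmn2 and Celf4 with Bcl11b and Slc32a1, and the proneural rows are pale or mixed.

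Of 16 pairs chosen for testing, 7 could be computed, because in the others at least 1 gene was below the filter. Values are exact two-sided permutation p within groups, adjusted over the 7 pairs by Benjamini-Hochberg, and the last r given leaves out the 2 libraries farthest from the median of the gene named first. Tubb3 and Dcx gave r = 0.92 (p = 0.00022, adjusted p = 0.000932), rho = 0.855 (p = 0.00463), and r = 0.94 without those 2 libraries. Dcx and Stmn2 gave r = 0.87 (p = 0.000266, adjusted p = 0.000932), rho = 0.964 (p = 0.000231), and r = 0.88. These genes were thus high and low in the same libraries. Snap25 and Syt1, which act in the same vesicle fusion step, gave r = 0.75 (p = 0.00984, adjusted p = 0.0230), rho = 0.673 (p = 0.0465), and r = 0.82. This pair was above 0.05 when control library 1, control library 6, overexpression library 1 or overexpression library 3 was left out, with adjusted p from 0.0598 to 0.0967. Without the mitochondrial and ribosomal-RNA-like rows, r of the 3 pairs was 0.94, 0.87 and 0.80.

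Other pairs did not covary detectably. Sst and Stmn2 gave r = 0.70 (p = 0.0409, adjusted p = 0.0715) and rho = 0.382 (p = 0.302), and r was -0.02 without control libraries 1 and 2, so the relation rested on those libraries. Map2 and Mapt gave r = 0.13 (p = 0.752, adjusted p = 0.873), rho = 0.382 (p = 0.302), and r = 0.14 without 2 libraries. Stmn2 and Gap43 gave r = -0.06 (p = 0.873, adjusted p = 0.873), rho = 0.0909 (p = 0.841), and r = 0.08. Nefl and Nefm, subunits of the same filament, gave r = -0.09 (p = 0.804, adjusted p = 0.873), rho = -0.236 (p = 0.543), and r = -0.19. For Map2 with Mapt and for Nefl with Nefm, r was below 0 within controls and above 0 within the overexpression group, so the pooled values near 0 join opposite signs. That difference was picked after the values were seen and was not tested.

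A further 4 pairs with Stmn2 were added after the values had been seen, and their p is adjusted over all 11 pairs. Bcl11b gave r = 0.88 (p = 0.000255, adjusted p = 0.000976), rho = 0.891 (p = 0.00215), and r = 0.86 without 2 libraries. Slc32a1 gave r = 0.90 (p = 0.00197, adjusted p = 0.00541), rho = 0.891 (p = 0.00215), and r = 0.89. The proneural gene Insm1 gave r = -0.15 (p = 0.598, adjusted p = 0.822), rho = -0.236 (p = 0.543), and r = -0.49. Mapt gave r = 0.53 (p = 0.126, adjusted p = 0.198), rho = 0.818 (p = 0.0088), and r = 0.95 without control library 6 and overexpression library 2, the same libraries through which its groups overlapped.

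The genes were sorted by likeness to Stmn2 alone, at a cut of r = 0.7. An r above 0.7 was found for 9 of the other 16 pan-neuronal genes, all 3 subtype genes and 0 of 4 proneural genes, against 3.58% of all tested genes. Of the subtype genes, Sst lay on the cut (r = 0.701), and its r was -0.02 without control libraries 1 and 2. The 13 genes on the Stmn2 side, Stmn2 included, had control means of 3.75 to 24.6 TPM and a median spread within groups of 0.74 on the log2 scale. The other 7 (Elavl3, Map2, Stmn3, Gap43, Mapt, Nefl and Nefm) had control means of 2.27 to 240 TPM and a median spread of 0.34. These sides depend on the choice of Stmn2 and do not bound the covarying block. Elavl3 and Stmn3 each had r above 0.7 with 9 other tested genes, among them Tubb3 at 0.87 and 0.89. Mapt had 2 such partners, and Gap43, Map2, Nefl and Nefm had 0. On the Stmn2 side, Rbfox3 had 2 and Sst 1.

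**Figure D5:**
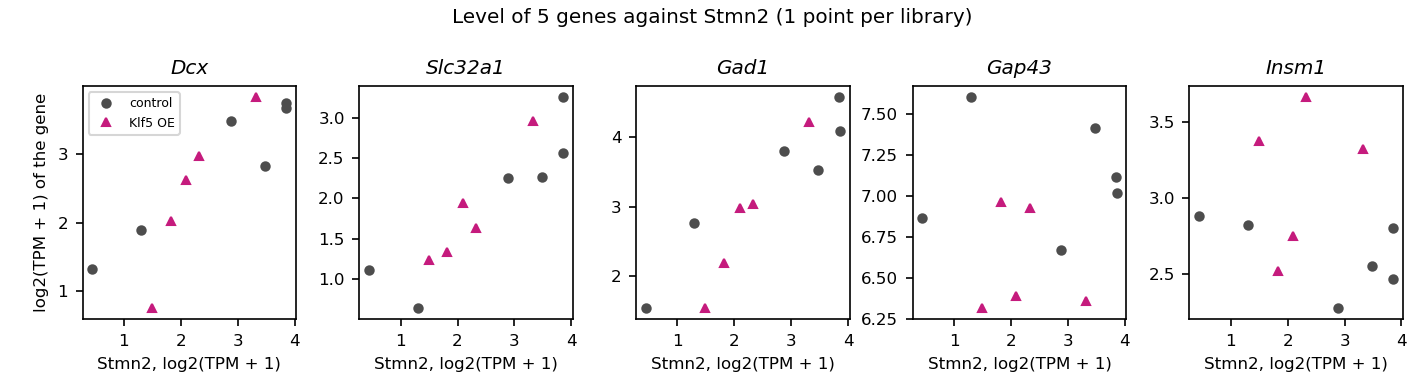
Each panel plots log2(TPM + 1) of a gene against Stmn2 over the 11 libraries, with control libraries as circles and Klf5 overexpression libraries as triangles. Dcx, Slc32a1 and Gad1 climb with Stmn2 in both groups, and Gap43 and Insm1 do not.

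Promoters of 4 genes of the covarying group are shown because these genes moved together across libraries. Each is the 250 bases before a RefSeq start on GRCm38.p6, 5′ to 3′ on the gene's strand, with the same capitals as above: Tubb3 at chr8:123411303-123411552 (plus), Dcx at chrX:143933220-143933469 (minus, the first of 2 listed), Bcl11b at chr12:108003415-108003664 (minus) and Slc32a1 at chr2:158610508-158610757 (plus).
Tubb3: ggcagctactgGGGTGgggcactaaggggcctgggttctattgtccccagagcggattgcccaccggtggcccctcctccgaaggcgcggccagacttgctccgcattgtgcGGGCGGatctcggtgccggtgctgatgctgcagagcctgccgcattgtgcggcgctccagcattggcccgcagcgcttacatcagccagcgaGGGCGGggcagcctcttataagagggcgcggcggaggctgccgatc
Dcx: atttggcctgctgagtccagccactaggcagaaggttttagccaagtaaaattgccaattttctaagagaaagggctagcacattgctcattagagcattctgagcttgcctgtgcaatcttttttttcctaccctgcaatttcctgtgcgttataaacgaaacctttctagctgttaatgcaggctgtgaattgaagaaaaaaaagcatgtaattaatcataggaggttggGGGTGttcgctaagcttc
Bcl11b: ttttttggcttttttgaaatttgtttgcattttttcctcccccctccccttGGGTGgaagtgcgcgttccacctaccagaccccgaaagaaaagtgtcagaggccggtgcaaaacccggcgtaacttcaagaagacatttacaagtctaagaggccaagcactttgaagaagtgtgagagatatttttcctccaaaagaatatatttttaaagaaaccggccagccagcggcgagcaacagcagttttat
Slc32a1: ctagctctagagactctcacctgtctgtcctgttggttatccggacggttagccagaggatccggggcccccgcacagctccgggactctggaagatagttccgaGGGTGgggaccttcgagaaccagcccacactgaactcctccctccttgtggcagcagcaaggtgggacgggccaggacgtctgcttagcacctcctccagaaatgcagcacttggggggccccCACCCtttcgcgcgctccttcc
CACCC occurred 1 time in Tubb3, Dcx and Bcl11b and 2 times in Slc32a1, and GGGCGG 2 times in Tubb3 alone. GC content ran from 41.6% in Dcx to 68% in Tubb3, so the promoters of genes with like profiles differed widely in base composition. The E-boxes CAGCTG and CAGATG, letters read by proneural bHLH factors, were in none of these windows nor in that of Sstr2. Among the 30 genes with an entry each was in 5 (16.7%), against 14.7% and 16.3% of the 27025 genes. TTCAGCACC, the first part of the element read by the neuronal gene repressor REST, was in 0 of 30, against 0.348% of all. Both strands were searched, and of these strings TTCAGCACC can overlap CACCC by its last letters.

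Genes of the same programmes outside the 39 were read from further lists. Of 14 tested further proneural genes 1 was higher, Dll3, a Notch ligand that acts within the cell, at 70.6 ± 14.6 TPM (SD, n = 6) in controls and 127 ± 17.4 TPM (SD, n = 5) with overexpression (log2 fold change 0.86, adjusted p = 0.00242, limma). Of 27 further pan-neuronal genes 2 were higher, the synaptic vesicle gene Syn2 (log2 fold change 0.58, adjusted p = 0.0239, limma) and the cell surface gene Thy1 (1.37, adjusted p = 0.0260), and 23 had a value below 0. Their calls held in 5 and 4 of 11 fits with 1 library left out. Of 16 projection neuron genes Nrn1, a neurite growth gene, was higher (3.87, adjusted p = 2.12e-05, limma), and the nuclear receptor gene Rorb was lower (-0.70, adjusted p = 0.0266, held in 6 of 11). Of 13 GABAergic genes 11 had a log2 fold change below 0. Of 11 genes of REST and its corepressors 0 passed.

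The same lists were read for likeness to Stmn2. An r above 0.7 was found for 13 of 27 further pan-neuronal genes and 6 of 13 GABAergic genes (Dlx6, Gad1, Dlx6os1, Dlx5, Gad2 and Sp9), against 1 of 16 projection neuron genes, 2 of 14 proneural genes and 0 of 11 genes of the REST list. Gad1, the GABA-synthesizing enzyme, was 1.89, 5.76, 10.6, 13.0, 16.1 and 23.1 TPM in controls 1 to 6 and 1.88, 3.55, 17.8, 7.20 and 6.89 TPM in overexpression libraries 1 to 5. It was lowest in library 1 of each group, and its highest overexpression value was again in library 3. Of the glial lists, 0 of 13 radial glia and 0 of 10 astrocyte genes were above 0.7, and 2 of 10 oligodendrocyte lineage genes were, Pdgfra (r = 0.84) and Sox10 (r = 0.81). The oligodendrocyte lineage list summed to 1746 to 3049 TPM in controls and 1802 to 2204 TPM with overexpression. Its part in the covariation was not tested.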

How the data were processed

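The 39 genes and all lists were chosen with earlier results of these data known. The authors deposited TPM values in 1 table with 1 column per library. Per the submitters' processing notes, HISAT2, StringTie, HTSeq, DESeq2 and GRCm38.p5 were used, without versions or order. Not given in the sources used here were the annotation release and strand setting. Per the labels' protocols, a pair of library kits was used, and which library used which is not given.

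TPM keeps no depth, so no counting interval is given. The rows add up to 814208 to 846780 TPM per library in controls and 730832 to 821967 TPM with overexpression. TPM is relative, so a large change in abundant transcripts moves all others. Symbols were matched to gene identifiers from a reference table. Gene coordinates come from GENCODE on GRCm38 and promoters from RefSeq on GRCm38.p6. The promoter table held 30 of the 39 genes. The others were Nefm, Gap43, Insm1, Stmn2, Mapt, Bhlhe22, Snap25, Nefl and Celf4.

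The 13549 genes that reached 1 TPM in 5 or more libraries were tested as log2(TPM + 1), a pseudocount of 1, with limma 3.58.1 (R 4.3.3), variance trend, 6 control against 5 overexpression libraries, no covariate, two-sided, Benjamini-Hochberg at 0.05. The scale understates changes of genes near 1 TPM. Single genes also had an exact permutation test over all 462 splits, and pairs one over 86400 arrangements within groups (Python 3.11.15, scipy 1.17.1). The scripts were tested on simulated data. All 39 genes are named, and of the further lists up to 4 genes that passed, except that some results on the further lists are not reported here. Gad1, Dlx6, Dlx6os1, Dlx5, Gad2, Sp9, Pdgfra, Sox10 and Myl9 were named after their values were seen. Alternatives were another pseudocount, other filters, trimmed-mean and quantile scaling, leaving out mitochondrial and ribosomal-RNA-like rows, no variance trend, array weights, a sex covariate, a replicate block and leaving out each library. With an overexpression library left out, the filter asked for 1 TPM in as many libraries as the smaller group kept.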

Additional observations from a re-analysis of the deposited data

Results flagged for a closer look

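Within each group of 5 or 6 libraries, the highest or lowest value was compared with its nearest neighbour by Dixon's ratio, in 53 gene groups. A single library stood apart in 7 of them, and chance alone does so in about 1 in 20. The gene groups share the same libraries and are not independent, so the 7 cannot be read as an excess. Overexpression library 3 stood high in 3: Elavl4 at 2.08 TPM, Celf4 at 8.95 TPM and Slc32a1 at 6.76 TPM. Mapt stood apart in both groups, at 31.3 TPM in control library 6 and 25.0 TPM in overexpression library 2. Sst stood high in overexpression library 4, at 6.14 TPM, and Mapk10 in overexpression library 5, at 1.43 TPM.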

How the results depend on the processing

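The rise of Sstr2 kept its direction and its call in every alternative that tested it, and the 5 TPM filter removed it, leaving 0 proneural genes higher. Where a filter applied, Sstr2 entered only through the overexpression group, so these calls are no separate support. The single pan-neuronal gene called higher, Mapt, was lost (0 genes) with a pseudocount of 0.1, with no filter and with no variance trend, and leaving out 1 library gave 0 to 1. With the sex covariate 1 pan-neuronal gene, Gap43, was called lower. Over all genes, 194 lower calls became 95 with no filter, 311 with quantile scaling and 293 without mitochondrial and ribosomal-RNA-like rows, and 123 to 212 with 1 library left out. Further genes called higher (5) ran from 2 to 5 with 1 library left out. Further genes called lower (1) became 3 with trimmed-mean scaling, 4 with quantile scaling, 3 without those rows and 2 with no variance trend, and ran from 0 to 3 with 1 library left out. Counting the 4 added pairs, 5 pairs passed in place of 3, but those pairs were picked with their values known, so this is no support. No scaling moved the median of all genes by over 0.1, and the cause of these shifts was not tested.

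Uncalled values near 0 reversed in some settings. Array weights gave 0.089 for Tubb3 and 0.11 for Bcl11b. With 1 library left out, the log2 fold change ran from -0.0041 to 0.32 for Gadd45g, -0.35 to 0.12 for Tubb3, -0.73 to 0.043 for Dcx, -0.40 to 0.30 for Snap25, -0.12 to 0.25 for Ina, -0.42 to 0.058 for Bcl11b and -0.47 to 0.060 for Slc32a1. The r of Map2 and Mapt was -0.16 with trimmed-mean scaling, -0.19 with quantile scaling and -0.20 without mitochondrial and ribosomal-RNA-like rows. With 1 library left out it ran from -0.15 to 0.59, that of Stmn2 and Gap43 from -0.35 to 0.21, and that of Nefl and Nefm from -0.43 to 0.24.

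For same-numbered control and overexpression libraries, r of their deviations was 0.304, 0.064, -0.013, -0.040 and 0.024. No r of differently numbered libraries stands beside these, so whether the numbers pair the libraries is not settled. The libraries were treated as unpaired. A fit with the replicate number as a block cannot use control library 6, which has no partner. It called 426 genes, against 406 without that library and without the block and 504 in all 11, and its log2 fold changes equal those without that library: Mapt gave 0.67 (adjusted p = 0.0203, limma), Tubb3 0.10, Snap25 0.20, Bcl11b 0.032 and Slc32a1 0.060. TPM keeps no depth, so how far depth limits genes near 1 TPM cannot be given.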

Other observations

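Calb2, a calcium-binding protein of interneurons on the GABAergic list, was below the filter, with 4 libraries at 1 TPM or more, and was singled out after its values were seen. It was 0.0789 to 0.460 TPM in controls and 1.72, 6.34, 0.737, 3.86 and 3.42 TPM in overexpression libraries 1 to 5, so every overexpression library was above every control. In the fit with no filter its log2 fold change was 1.72 ± 0.32 (SE; adjusted p = 0.0264, limma).

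Among the 276 pairs of tested genes, the lowest r was that of Insm1 and Sstr2, -0.81 over 11 libraries with group means removed. This pair was picked as the extreme and has no test. With overexpression, Sstr2 was highest in library 2 (4.97 TPM), where Insm1 was lowest (4.74 TPM), and lowest in library 4 (1.38 TPM), where Insm1 was highest (11.7 TPM).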
